A study of Oncorhynchus mykiss with 12 samples.

Results

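Transcript levels in the head kidney of juvenile rainbow trout fed T3 were set against those of trout fed PTU, on 8 of the study's 12 arrays. The members are the 4 pools labelled T3 and the 4 labelled PTU. T3 fish received 20 µg of the hormone per g of feed and PTU fish 5000 µg of the drug per g of feed, each for 7 days. The other 4 arrays held control fish that received neither agent, and these served as further replicates for the estimate of the spread. All fish were of 50 g, came from one stock and were kept in 6 aquaria of 10 fish at one temperature. Each array read the total RNA of 2 pooled fish, so differences between single fish were averaged within a pool. The labels do not tie pools to aquaria. With 12 pools and 6 aquaria, some pools must have held fish of the same aquarium. Such pools are not independent, and p-values from them may overstate the evidence. If each aquarium received a single feed, differences between aquaria and between feeds cannot be told apart.

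T3 (triiodothyronine) is the form of thyroid hormone that binds the nuclear thyroid hormone receptors, which switch target genes on or off with their bound coregulators. PTU (propylthiouracil) blocks thyroid peroxidase, the enzyme that builds the hormone in the thyroid, so a T3 diet and a PTU diet push hormone status in opposite directions. Hormone already stored or circulating can outlast the start of a PTU diet. In bony fish the head kidney combines blood cell formation and lymphoid functions with the interrenal cells that make corticosteroids. The comparison therefore asks how far transcript levels of a tissue of mixed blood and immune cells lie apart between these hormone states. In whole tissue, fewer cells of a type and less RNA per cell cannot be told apart.

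The array was a custom design with probes for selected immune-related trout genes. The files pair no probe with a gene, so probes are given by ID, and markers of head kidney cell types were not analysed here. A level is the log2 intensity of a probe minus the 75th percentile of its array. A difference is the mean level in T3 minus the mean level in PTU, so 1 unit is 2-fold. Of 12884 trout probes, 11678 were well above background on at least 3 of the 4 arrays of T3 or of PTU and were tested. The share of probes well above background ran from 79.1% to 99.0% on T3 arrays and from 88.1% to 97.4% on PTU arrays. The 75th percentile of intensity lay between 722 and 1550 on T3 arrays and between 1010 and 2418 on PTU arrays. The T3 arrays lay on slide 1, read in scan 1, beside the control arrays in another row of that slide. The PTU arrays lay on slide 2, read in scan 2. Slide and treatment cannot be told apart in any difference below.

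2 arrays stood apart from the rest, T3 replicate 1 and PTU replicate 3, on which dim probes were raised. Probes were divided into 5 signal classes of equal size by their mean level over all 12 arrays, from the dimmest (class 1) to the brightest (class 5). In the dimmest class, the median deviation from each probe's median over the 8 arrays was 1.91, -0.24, -0.21 and -0.06 in T3 replicates 1 to 4. It was -0.37, -0.62, 1.59 and 0.08 in PTU replicates 1 to 4. In the brightest class T3 replicate 1 deviated by -0.35 and PTU replicate 3 by -0.15, while the other 6 arrays lay between -0.01 and 0.17. With 1 raised array in each group, the group means of the dimmest class were 0.35 ± 1.04 in T3 and 0.17 ± 0.99 in PTU (SD, n = 4 each). No class passed an exact permutation test over the arrays, two-sided, with adjusted p-values over the 5 classes of 0.893 to 1. Before adjustment, the smallest p this test can give with 4 against 4 arrays is 0.0286. After adjustment over the 5 classes, 1 class alone at that value would not pass at 0.05. The test could thus not call a shift confined to 1 class. The main counts below are given with all arrays and without those 2, and some others with all arrays only.

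**Figure D1:**
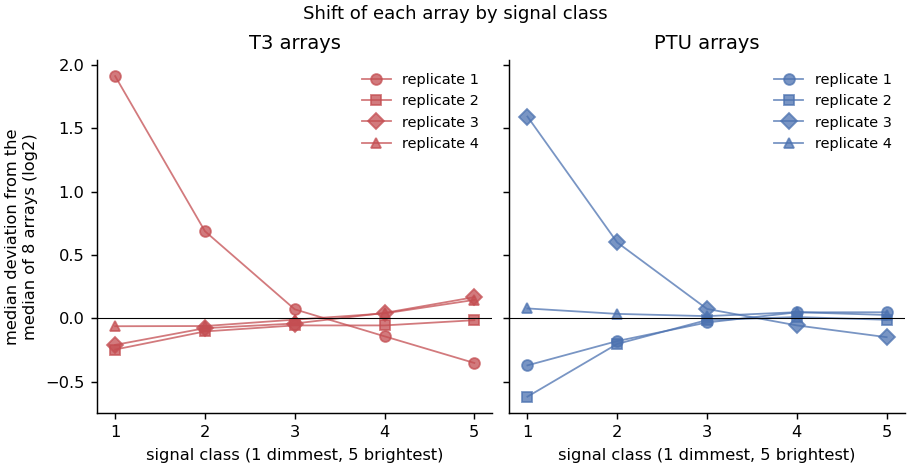
The median deviation of each array (log2) from the probe medians over the 8 arrays, by signal class, with T3 arrays on the left and PTU arrays on the right and 1 line per array. T3 replicate 1 (1.91) and PTU replicate 3 (1.59) stand above the other 6 arrays in the dimmest class.

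Across all tested probes the scaled levels of T3 and PTU pools had nearly the same centre and a tail towards higher levels in T3. Each level is relative to a percentile of its own array. A shift shared by all probes is thus removed, and the common centre cannot show whether one was present. The median difference also moved with the processing, to -0.10 with arrays scaled by their medians and 0.19 with normexp background correction. Normexp was run on median spot signals, and an offset of 50 was added to every intensity. The part of this offset in any change with normexp was not tested. The median difference was 0.01, and 5% of the probes lay below -0.80 and 5% above 1.22. Without the 2 arrays the median was 0.01, and these bounds were -0.94 and 1.42. Over 2-fold higher in T3 were 850 probes (7.28%), and over 2-fold lower were 310 (2.65%), together 9.93% of those tested. Without the 2 arrays these counts were 1065 (9.12%) and 486 (4.16%), together 13.3%. Over 4-fold, 166 probes were higher in T3 (1.42%) and 19 were lower (0.163%), against 256 (2.19%) and 50 (0.428%) without the 2 arrays. Means of 3 pools vary more than means of 4, so these counts from 8 and 6 arrays are not directly comparable. The SD of the differences over probes was 0.65 with all arrays and 0.75 without the 2. With normexp background correction these counts were 79 and 6, and among probes well above background on all 8 arrays 1 probe was lower and the higher count was smaller by over 1.5 times. A mean difference of 4-fold did not by itself set the groups apart, as the values of these probes below show.

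No probe passed the test with all arrays. By limma with Benjamini-Hochberg adjustment, 0 of 11678 probes (0%) had an adjusted p under 0.05, and the smallest was 0.112. At an unadjusted p under 0.05 there were 809 probes, 6.93% of those tested, where 5% pass when nothing differs and the test's assumptions hold. Of these, 476 (4.08%) were higher in T3 and 333 (2.85%) were lower. Without the 2 arrays, 2 probes (0.0171%) had an adjusted p under 0.05, and 1154 (9.88%) had an unadjusted p under that value, 715 of them (6.12%) higher in T3 and 439 (3.76%) lower. In 658 probes the unadjusted p was under 0.05 in both settings, which is 81.3% of the list from all arrays and 57.0% of the list without the 2 arrays. All 658 had the same sign in both settings, which share 6 arrays of these feeds.

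These counts turned on single pools. Without T3 replicate 1 alone the unadjusted p was under 0.05 for 929 probes, and 41.7% of them were higher in T3, against 58.8% with all arrays. Without PTU replicate 3 alone there were 1335, of which 70.6% were higher in T3, and the 2 called probes were the same 2 as without both arrays, JC000708 and JC007150. Without PTU replicate 2 alone there were 460, of which 49.8% were higher in T3. Control replicate 2, with 99.6% of its probes well above background, entered the estimate of the spread in all of these, and without it and the 2 arrays 1562 probes had an unadjusted p under 0.05. Array quality weights gave 7 calls and quantile normalization 4, all higher in T3.

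The same question can be put to the arrays without a model. The 4 T3 levels all lay above the 4 PTU levels for 277 probes (2.37%) and all below for 275 (2.35%), together 4.73%. With 3 against 3 arrays, after leaving out the same 2, there were 1205 such probes higher in T3 (10.3%) and 1235 lower (10.6%), together 20.9%. Fewer arrays overlap less readily, so the shares from 8 and 6 arrays are not comparable. When nothing differs and the arrays are independent, a fraction of 0.0286 is expected with 4 against 4 arrays. With 3 against 3 arrays it is 0.1. Higher and lower probes were about equally frequent in both settings on this measure, whereas the counts over 4-fold were mostly higher in T3. The near balance did not hold within each signal class. With all arrays 11, 37, 46, 87 and 96 probes were higher in T3, from the dimmest class to the brightest. Lower in T3 were 21, 60, 75, 82 and 37. Without the 2 arrays 190, 225, 173, 234 and 383 were higher in the same order, and 197, 261, 268, 307 and 202 lower.

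With all arrays, pools of different feeds were about as far apart as pools of the same feed. The median absolute difference between 2 arrays over the tested probes was 0.41 to 0.82 within T3 (median 0.58 over 6 pairs of arrays). It was 0.39 to 0.86 within PTU (median 0.58 over 6) and 0.44 to 0.94 between T3 and PTU (median 0.57 over 16). The closest of all these pairs by rank correlation across probes was T3 replicate 4 with PTU replicate 2, at 0.962, above the highest value within T3 (0.945) and within PTU (0.944). The least alike were T3 replicate 1 and PTU replicate 2, at 0.799. By the median absolute difference the closest were PTU replicates 1 and 2, at 0.39, and T3 replicate 4 with PTU replicate 2 was at 0.48. Without the 2 arrays the medians were 0.44 within T3 (0.41 to 0.45), 0.50 within PTU (0.39 to 0.55) and 0.53 between T3 and PTU (0.44 to 0.68). Pools of different feeds were then somewhat further apart by the median, with overlapping ranges. In the brightest class these medians were 0.33, 0.32 and 0.40, and in the dimmest 0.59, 0.86 and 0.79. Probes are not independent replicates, and these values describe the arrays without a test.

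With rising signal the differences narrowed, while their median, on levels scaled within each array, stayed near 0. The median difference by class, from the dimmest to the brightest, was 0.13, 0.06, -0.002, -0.08 and -0.006. Probes over 2-fold in either direction made up 17.1%, 14.4%, 8.30%, 5.78% and 4.11% of the classes in that order. The share at an unadjusted p under 0.05 did not follow that order, at 4.28%, 7.58%, 8.69%, 9.12% and 4.97%. The dimmest class thus held the most large differences and the fewest that stood out from the spread. Its median SE was 0.79, against 0.35 in the brightest class.

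**Figure D2:**
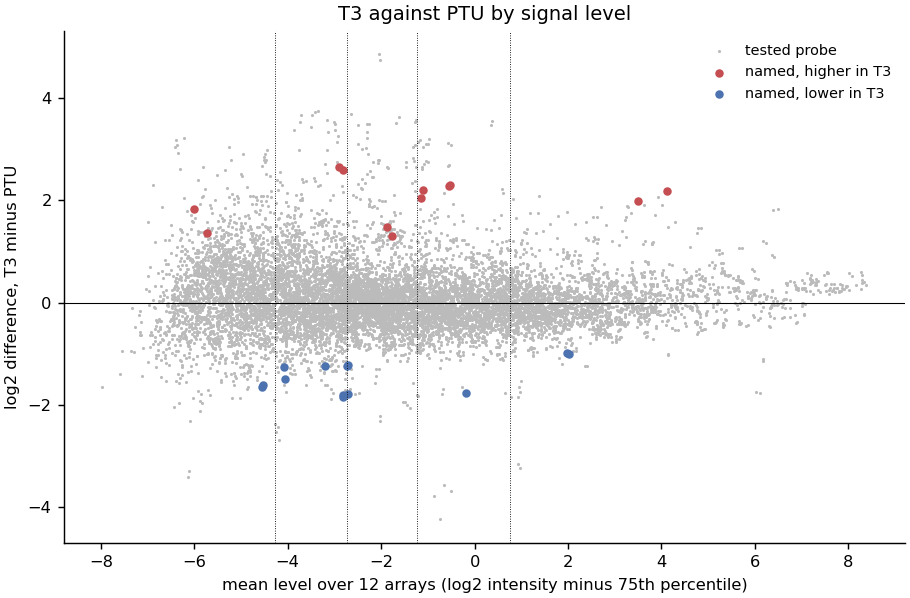
The log2 difference (T3 minus PTU) of each of 11678 tested probes against its mean level over 12 arrays (log2, relative to the 75th percentile of the array). Dotted lines part the 5 signal classes, and the 25 named probes are coloured by direction. The cloud narrows towards bright probes, and the points over 4-fold lie mostly above 0.

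Without the 2 arrays more of the dim probes had a small p. The share at an unadjusted p under 0.05 became 9.72% in the dimmest class and 13.0% in the next, and the later 3 stood at 10.1%, 10.6% and 5.95%. Probes over 2-fold then made up 22.6%, 18.5%, 10.4%, 8.39% and 6.46% of the classes. The median SD between pools of the same feed in the dimmest class was 0.66 without the 2 arrays, against 1.30 with them. In the brightest class it was 0.31 without them and 0.39 with them. In this class of 2336 probes, 90 at an unadjusted p under 0.05 were higher in T3 and 26 were lower with all arrays. Together they were 4.97% of the class, where 5% pass when nothing differs. Without the 2 arrays there were 105 and 34. Among all 11678 tested probes there were 476 (4.08%) and 333 (2.85%) with all arrays. Without the 2 arrays there were 715 (6.12%) and 439 (3.76%). Brightness also set how small a difference could be bounded. With all arrays the 95% interval lay wholly within 2-fold for 2.61% of the dimmest probes, 44.3% of the brightest and 26.6% of all. Without the 2 arrays these shares were 3.25%, 32.1% and 20.8%.

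Many probes had a near match elsewhere on the array that followed the numbering of the IDs. The 12884 IDs run without a gap, and a probe and the one 6442 places later in this order read nearly the same levels in most cases, with a mean absolute difference over the arrays within 0.2 for 70.9%. Over the 6442 such pairs the median absolute difference was 0.09 and the median correlation over the 12 arrays was 0.981. For IDs 6441 places apart these values were 2.64 and 0.194, and for neighbouring IDs 2.63 and 0.188. No source used here says that the 2 IDs of a pair carry the same probe, and the pairing was noticed after the data were seen. For 77.2% of 10992 tested probes with both IDs tested and complete, the probe most like it was its paired ID. Counts of probes above are counts of IDs, in which such pairs stand as 2.

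The spread between paired IDs on one array is given beside the spread between pools. The median SD between the 2 IDs of a pair was 0.25 in the dimmest class, then 0.11, 0.08, 0.06 and 0.05 up to the brightest. The median SD between pools of the same feed was 1.27, 0.77, 0.55, 0.42 and 0.39 in the same pairs. The spread between pools was 5.05 to 7.15 times that between paired IDs, and 2.48 to 6.71 times without the 2 arrays. The SD between pools includes the error of a single ID and everything else that differed between arrays, such as the fish, their RNA, labelling and hybridisation, and these parts cannot be told apart.

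**Figure D3:**
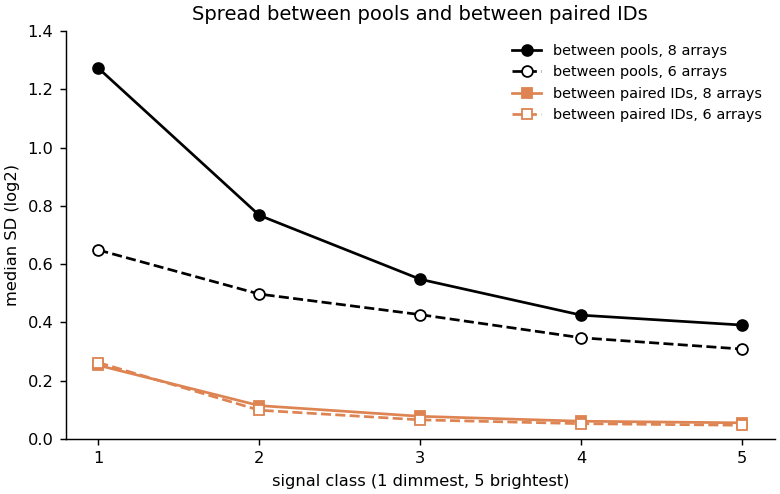
The median SD (log2) between pools of the same feed (black circles) and between the 2 IDs of a pair on one array (orange squares), by signal class. Filled symbols use all 8 arrays and open symbols the 6 without T3 replicate 1 and PTU replicate 3. The spread between pools in the dimmest class is 1.27 with all arrays and 0.65 without the 2, and the spread between paired IDs stays near 0.25.

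The 2 IDs of a pair gave much the same difference between T3 and PTU. They had the same sign in 91.1% of 5759 pairs with both tested, with a correlation of the 2 differences of 0.932 across pairs. In 332 pairs both IDs had an unadjusted p under 0.05, all with the same sign, and 199 of these were higher in T3 and 133 lower. In 136 pairs only 1 of the 2 passed. Both IDs were read on the same RNA and arrays, so the second is no further replicate of a feed. With the 2 IDs averaged before the fit, 0 of 5919 pairs (0%) had an adjusted p under 0.05, the smallest being 0.117, and 409 (6.91%) had an unadjusted p under 0.05. Without the 2 arrays 1 pair was called (0.0169%), and 574 (9.70%) had an unadjusted p under 0.05.

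The 25 named probes belonged to 17 ID pairs, 8 higher in T3 and 9 lower, and both IDs were named in 8 of the 17. They were named for small p-values or large differences in this same comparison, so their values are a description. In all 25 the T3 and PTU arrays did not overlap, which the naming favoured, and on pair means 16 of the 17 pairs did not overlap. None passed the test with all arrays, with adjusted p-values of 0.117 to 0.517 on pair means, and 7 of the 25 IDs, all higher in T3, were called under 1 or more of the alternatives. Without T3 replicate 1 and PTU replicate 3 the adjusted p was 0.00559 for 1 pair and 0.114 to 0.288 for the other 16. Their differences with all arrays were 1.97-fold to 6.23-fold in size. Values of pairs below are means of the 2 IDs.

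The pair JC000708 and JC007150 had the largest named difference. Its level was -1.98, -2.08, -1.56 and -2.34 in T3 replicates 1 to 4, against -4.82, -5.36, -3.30 and -5.04 in PTU replicates 1 to 4. The 4 control pools read -2.05, -1.88, -2.12 and -1.82, close to the T3 pools. Here and in the pairs below, controls shared slide 1 with T3, so feed and slide cannot be told apart in such a likeness. All 4 PTU pools lay below every other pool, and PTU replicate 3, the array with raised dim probes, was the nearest to them. T3 exceeded PTU by 2.64 ± 0.40 (SE, limma), 6.23-fold, with an adjusted p of 0.117. Without T3 replicate 1 and PTU replicate 3 the difference was 3.08 ± 0.28, 8.44-fold, and the adjusted p from limma was 0.00559. This was the 1 pair called in that setting. For JC007150 alone the adjusted p over 26 alternatives ran from 0.00193 to 0.611, the difference from 2.12 to 3.11, and it was called in 5 of them.

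The pair JC002661 and JC009103 read -0.03, 0.51, 0.61 and -0.20 in T3 pools, against -1.91, -2.47, -1.35 and -2.63 in PTU pools. Controls lay between -0.24 and 0.70, within or near the range of T3. The difference was 2.31 ± 0.36 (SE), 4.97-fold, with an adjusted p of 0.117, and 0.114 without the 2 arrays. The pair JC000579 and JC007021 was alike in size, with -0.30, -0.78, 0.01 and -0.23 in T3 pools, against -2.43, -2.98, -2.00 and -2.46 in PTU pools. Its controls spread more widely, from -1.27 to -0.06, and still lay above all PTU pools. T3 exceeded PTU by 2.14 ± 0.35 (SE), 4.42-fold, with an adjusted p of 0.117.

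Among the brightest probes, 2 named pairs were higher in T3. JC003946 and JC010388 read 4.50, 4.66, 5.32 and 4.84 in T3 pools, against 1.92, 2.01, 3.74 and 3.07 in PTU pools. The PTU pools fell into 2 low and 2 higher values, all below the lowest T3 pool. Controls of this pair ran from 3.64 to 5.50, and the lowest of them lay below the highest PTU pool. The difference was 2.15 ± 0.49 (SE), 4.42-fold, with an adjusted p of 0.401. JC000494 and JC006936 read 3.91, 4.16, 4.67 and 3.86 in T3 pools, against 1.53, 1.85, 3.07 and 2.57 in PTU pools, with the same order among the PTU pools as far as the 2 low and 2 higher ones go. This pair differed by 1.90 ± 0.42 (SE), 3.72-fold, with an adjusted p of 0.401.

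The other 3 named pairs higher in T3 were smaller in size. JC005214 and JC011656, of middle brightness, averaged -1.25 ± 0.35 in T3 and -2.66 ± 0.12 in PTU (SD, n = 4 each). The 4 PTU pools of that pair lay between -2.81 and -2.57, the difference was 1.41 ± 0.26 (SE), and the limma adjusted p was 0.253. The other 2 were among the dimmest: JC004272 and JC010714 differed by 1.34 ± 0.28 (SE), and JC000672 and JC007114 by 1.62 ± 0.40 (SE), each with an adjusted p of 0.401. JC004272 was well above background on 3 of 4 PTU arrays and JC000672 on 2 of 4, so their PTU levels are near the limit of measurement.

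**Figure D4:**
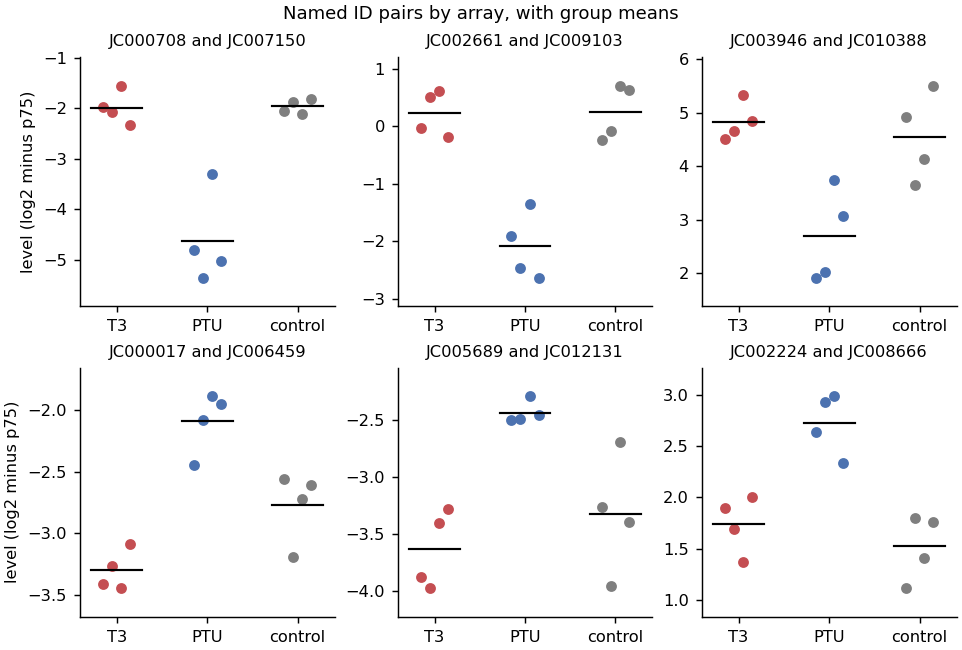
Levels (log2, relative to the 75th percentile of the array, mean of the 2 IDs) of 6 named ID pairs in each T3, PTU and control array, with 1 point per pool and a bar at the group mean. The 3 pairs in the top row are higher in T3 than in PTU and the 3 in the bottom row lower, with no overlap between those groups. Vertical axes differ between panels and do not start at 0.

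Of the 9 pairs lower in T3, JC000017 and JC006459 had the smallest p. They read -3.41, -3.27, -3.45 and -3.08 in T3 pools, against -2.45, -2.08, -1.89 and -1.95 in PTU pools. Control pools ran from -3.19 to -2.56, with the lowest inside the T3 range and all 4 below the PTU pools. T3 minus PTU was -1.21 ± 0.24 (SE), with a limma adjusted p of 0.353. JC005689 and JC012131 read -3.88, -3.98, -3.40 and -3.28 in T3 pools, against -2.50, -2.48, -2.29 and -2.45 in PTU pools. The PTU pools were tightly grouped and the difference was -1.20 ± 0.29 (SE), with an adjusted p of 0.401. Controls of this pair ran from -3.95 to -2.69, all below the PTU pools.

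JC002224 and JC008666, among the brightest class, read 1.89, 1.70, 1.38 and 2.01 in T3 pools, against 2.64, 2.93, 2.98 and 2.34 in PTU pools. Controls ran from 1.12 to 1.80, all below the PTU pools. The difference was -0.98 ± 0.26 (SE), 1.97-fold lower in T3, with an adjusted p of 0.457. JC005532 and JC011974 read -0.88, -1.88, 0.26 and -0.73 in T3 pools, against 0.79, 1.31, 0.58 and 0.85 in PTU pools. T3 replicates 2 and 3 of that pair differed from each other by more than the group means did, and the difference was -1.69 ± 0.41 (SE), with an adjusted p of 0.401.

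The remaining 5 pairs lower in T3 were dim or widely spread. JC006010 and JC012452 read -4.87, -4.77, -6.43 and -5.08 in T3 pools, against -3.68, -3.88, -3.07 and -4.07 in PTU pools, a difference of -1.62 ± 0.37 (SE). The lowest T3 pool, replicate 3, was the one not well above background. JC001047 with JC007489 and JC001241 with JC007683 had differences of -1.81 ± 0.56 and -1.73 ± 0.52 (SE), each with an adjusted p of 0.517. In both of these pairs PTU replicate 2 was the highest array, at -0.87 and -0.83. Control replicate 4 lay within the PTU range in both, at -1.81 and -1.85, and the other control pools lay below that range. JC005514 and JC011956 differed by -1.42 ± 0.36 (SE). JC002877 and JC009319 differed by -1.12 ± 0.31 (SE) and were the 1 pair whose T3 and PTU pools overlapped on the mean of the 2 IDs.

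Another correction of the background, normexp with an offset of 50, made the difference smaller by over 1.5 times in 10 of the 25 named probes. Such an offset by itself draws the log2 levels of dim probes together, so the correction and the offset cannot be told apart here. All of these were lower in T3 except JC000672, whose difference went from 1.83 to 1.13. With it the difference of JC006010 was -0.31, that of JC002877 -0.44, that of JC005514 -0.55, that of JC005689 -0.56 and that of JC006459 -0.73. The signs stayed the same, as they did for all 25 named probes under each of up to 26 alternatives that gave a value. The T3 and PTU arrays of these probes did not overlap, so leaving out or weighting arrays could not reverse a sign. Most of these alternatives are thus no check on the signs.

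The tail of 166 probes over 4-fold higher in T3 rested on few pools. Of these, 101 had an unadjusted p under 0.05 and 16 had T3 arrays that lay wholly above the PTU arrays. Among all tested probes, 4.08% had such a p and were higher in T3, and 2.37% had T3 arrays wholly above. Choosing probes by their difference favoured both. The highest of the 8 levels was on T3 replicate 2 for 120 of them, on T3 replicate 1 for 35 and on T3 replicate 3 for 11. The lowest was on PTU replicate 2 for 142 and on PTU replicate 1 for 19. Their median deviation from the probe medians over 12 arrays was 1.31, 3.26, 0.75 and -1.06 in T3 replicates 1 to 4, against -2.16, -3.09, -0.39 and -0.74 in PTU replicates 1 to 4. T3 replicate 4 was thus lower than 2 of the PTU pools. The control pools also lay apart from each other, at 0.36, 2.74, 0.88 and -0.71.

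**Figure D5:**
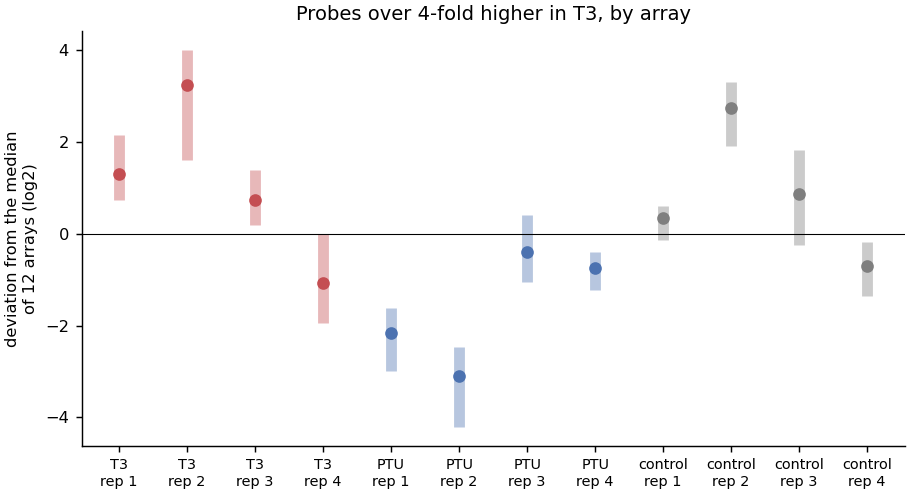
The deviation (log2) of the 166 probes over 4-fold higher in T3 from each probe's median over 12 arrays, by array, with T3, PTU and control from left to right. Points are medians and bars run from the 25th to the 75th percentile of the probes. T3 replicate 2 (3.26) and control replicate 2 (2.74) are highest, PTU replicate 2 (-3.09) is lowest, and T3 replicate 4 (-1.06) lies within the range of the PTU arrays.

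Leaving out single pools moved both counts over 4-fold. Means over fewer pools vary more, so counts from unlike numbers of pools are not directly comparable. Without T3 replicate 2 there were 135 probes over 4-fold higher in T3 and 38 over 4-fold lower, and without PTU replicate 2 there were 115 and 50. Without both there were 80 and 60, a setting chosen after the values were seen. Without PTU replicate 3 there were 377 and 17, without T3 replicate 1 there were 135 and 92, and without T3 replicate 4 there were 256 and 41. As ID pairs, 67 had both IDs over 4-fold higher and 7 had both over 4-fold lower.

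The largest difference of all, in JC006657 and its paired ID JC000215, shows this spread; these were chosen after their values were seen. JC006657 read 0.76, 3.56, 0.20 and -3.85 in T3 pools, against -6.49, -6.68, -1.71 and -3.87 in PTU pools. The groups overlapped at T3 replicate 4, and the controls ran from -4.74 to 2.47. Its difference of 4.86 ± 1.78 (SE) had a limma adjusted p of 0.590. JC000215 gave 4.75 ± 1.72 (SE). The pair JC004295 and JC010737, chosen in the same way, showed another form. JC004295 was at -9.38 and -9.79 in PTU replicates 1 and 2, while the other 2 PTU pools (-1.86 and -1.36) lay within the T3 range of -2.70 to -0.90. Both low values lay below the lowest mean level of any tested probe, -7.97, so the size of this gap is not well measured. Control replicate 1 was also low, at -7.14, and the other 3 control pools lay between -1.77 and -0.39.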

How the data were processed

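Each spot's processed signal is a background-corrected intensity that the authors read with Agilent Feature Extraction 10.7.3.1, per the file headers. Median spot and local background signals, deposited as intensity, served an alternative correction, normexp with an offset of 50. The deposited value table held a fraction: each value equalled the processed signal over its array's sum, with no log and no centring, as found by setting the columns against the scanner values. Its column medians ran from 2.9e-06 to 8.1e-06, and 0 columns of other samples were in it.

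Levels are log2 processed signals minus the array's 75th percentile, without control and outlier spots. limma 3.58.1 (R 4.3.3) fitted the 12 arrays as 3 groups, two-sided, with Benjamini-Hochberg adjustment at 0.05. The fit was run on simulated data with independent probes and arrays, where the signs of called changes were checked. Those data held no raised arrays, paired IDs or shared aquaria, so they are no check on the p-values here. Named were the 6 probes with the smallest p per direction, the 2 with the smallest p per direction in the dimmest, middle and brightest classes, the 3 largest differences per direction among probes well above background on all 8 arrays with groups apart, and the smallest p per direction without T3 replicate 1 and PTU replicate 3. The members, rule and gene lists were chosen with earlier results of these data known. The lists were not analysed here, since 0 probe IDs matched the trout gene table. Alternatives varied scaling, background correction, filter, outlier spots, fit, block, weights and arrays; the counts over 4-fold, averages of paired IDs and the omission of T3 replicate 2 with PTU replicate 2 were added after seeing the data. The number of arrays limits the precision.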

Additional observations from a re-analysis of the deposited data

Results flagged for a closer look

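In 6 of 76 groups of 4 arrays examined, 1 array lay far from the other 3 by Dixon's test, which chance alone would give in about 1 of 20 groups. T3 replicate 1 had 232 outlier spots, against 0 to 3 on the other T3 arrays. It also deviated by 1.91 in the dimmest class and by 0.69 in the next, where the other T3 arrays lay between -0.24 and -0.06 and between -0.10 and -0.06. The local background of T3 replicate 4 was lower, at a median intensity of 26, than that of the other T3 arrays, at 27. JC006010 was at -6.33 in T3 replicate 3, with the other T3 arrays between -4.98 and -4.80. JC007489 was at -0.83 in PTU replicate 2, with the other PTU arrays between -2.03 and -1.84.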

How the results depend on the processing

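Calls at an adjusted p under 0.05 numbered 0 with all arrays, 4 with quantile normalization (JC000708, JC007150, JC002661 and JC003321, the last named after its values were seen), 7 with array quality weights, and 2 without T3 replicate 1 and PTU replicate 3, with or without control replicate 2; averaging paired IDs without those 2 arrays gave 1. Leaving out 1 array gave 0 to 2 calls, the 2 without PTU replicate 3. All these were higher in T3. The 809 probes at an unadjusted p under 0.05 became 539 with normexp, 1559 with weights, 1562 without the 3 arrays and 409 with paired IDs averaged; with 1 array left out it ranged from 460 (without PTU replicate 2) to 1335 (without PTU replicate 3). The share of them higher in T3, 58.8%, became 49.5% with quantile normalization, 49.6% with median scaling, 73.5% with normexp, 62.9% with outlier spots kept, 52.9% with weights, 62.8% with paired IDs and 64.3% with paired IDs without the 2 arrays. With 1 array left out it ranged from 41.7% (without T3 replicate 1) to 70.6% (without PTU replicate 3). The median difference moved to -0.10 with median scaling and 0.19 with normexp, and differences relative to it shift by as much; it ranged from -0.091 to 0.10 with 1 array left out. Differences between groups by signal class, none past the test, changed sign with quantile normalization to -0.048, -0.10 and -0.0037 in classes 1, 2 and 5, with median scaling to -0.054 and -0.10 in classes 2 and 5, with normexp to 0.063 and -0.024 in classes 3 and 5, and with the stricter filter to -0.0082 in class 2. With 1 array left out they ranged from -0.32 to 0.66, -0.13 to 0.25, -0.020 to 0.0090, -0.042 to -0.0095 and -0.046 to 0.11 in classes 1 to 5. The 166 probes over 4-fold higher and 19 lower in T3 became 79 and 6 with normexp, 127 and 30 with quantile normalization and 171 and 49 with weights, and with the stricter filter 1 was lower and the higher count shrank by over 1.5 times; these counts were chosen after seeing the data. The cause was not tested. A replicate block gave 0 calls and 662 probes at an unadjusted p under 0.05. The deviations of same-numbered T3 and PTU arrays correlated with r of -0.29, 0.02, -0.26 and -0.31. For arrays of unlike number r ran from -0.53 to 0.69, both with T3 replicate 1. These values cannot decide whether same-numbered pools were paired. For probes near background, signal over background limits the measurement.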

Other observations

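The flag for being well above background was set unevenly between the feeds at the dim end. It is set on each array's own intensities and does not use the scaled level. Of 12884 trout probes, 0 were well above background on all 4 T3 arrays and at most 1 PTU array. On all 4 PTU arrays and at most 1 T3 array 86 were so. On 3 or more arrays of a feed, 11065 were well above background in T3 and 11563 in PTU. Of these, 115 and 613 were so on under 3 arrays of the other feed. Without T3 replicate 1 and PTU replicate 3, 0 probes were well above background on all 3 T3 arrays and no PTU array, and 88 on all 3 PTU arrays and no T3 array. Nearly all of the 88 were well above background on T3 replicate 1, the T3 array with raised dim probes. The flag did not always follow the scaled level. Among the 88, JC002301 was at -7.25 on PTU replicate 2 and higher, at -6.94, on T3 replicate 2. In JC006935 the 3 PTU arrays all lay above the 3 T3 arrays. These 2 were picked after their values were seen. The counts are thus not counts of transcripts present under a single feed. The median intensity of the negative control spots was 32 to 38.5 on T3 arrays and 39 to 44.5 on PTU arrays, without overlap, by an exact permutation test p = 0.0286, the smallest it can give, and 0.229 adjusted over 8 array measures. The control arrays, on slide 1 with T3, ran from 31 to 41 and so reached into the PTU range. The part of brightness and slide in the detection counts was not tested. In 43 manufacturer's control probes, 0 had all arrays of a fed group above all control arrays. That count looked for higher values only and did not set T3 against PTU. When nothing differs, 1 of the 70 divisions of 4 against 4 arrays gives such an order. A count of 0 in 43 probes thus cannot tell whether the slides were alike.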
